A study of Oryza sativa Indica Group with 4 samples.

Results

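The HSP90 and HSP100 chaperones of rice were followed here as 9 loci fixed by a list of identifiers: 6 HSP90 loci (4 listed as cytosolic, 1 as belonging to the endoplasmic reticulum (ER) and 1 to an organelle) and 3 HSP100 loci (HSP101 and 2 organelle ClpB loci). Reads were found on 8 of the 9 loci, of 28458 loci with at least 1 read in the series. LOC_Os09g30418, a cytosolic HSP90 locus, was not listed in the tables used here, so no value is given for it and it adds nothing to the sums. The files name loci by identifier alone, so the class of each locus is the one under which it was listed and was not checked against an annotation of these loci.

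Leaf blades of the indica rice variety Zhongxian 3037 (wild type, WT) and of the tog1 mutant that arose from it (allele togr1-1) were compared at 30 °C and 25 °C. The groups were the tog1 mutant at 30 °C, the tog1 mutant at 25 °C, WT at 30 °C and WT at 25 °C, with 1 library each. All seedlings were 22 days old, had spent their last 18 days at the stated temperature under 12 h of light at 80% humidity, and gave fourth-leaf blades that were pooled to 100 mg per library. The mutant is a single spontaneous recessive allele that changes an amino acid, and each library is a single pool, so neither a second allele nor a second pool was measured.

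HSP90 proteins are ATP-driven dimers that bind partly folded client proteins, among them receptors, kinases and regulators of the heat shock response, and bring them to an active shape with the help of co-chaperones. HSP100 proteins of the ClpB type, of which HSP101 is the cytosolic member in plants, form hexameric rings that thread proteins out of aggregates, together with HSP70. In plants HSP101 is known as a requirement for acquired thermotolerance, and its organelle relatives act in chloroplasts and mitochondria. Transcripts of HSP101 and of some cytosolic HSP90s are known to be induced by heat shock, whereas other HSP90 genes are expressed at all temperatures.

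The libraries held from 11959859 to 12371522 reads counted on transcripts, so depth differed little. Rubisco activase (LOC_Os11g47970), a leaf marker, ranked 1 by RPKM (reads scaled by library size and transcript length) in each library. The wild-type library at 30 °C stood apart in other leaf markers. A Rubisco small subunit (LOC_Os12g17600) had 4955 and 5357 RPKM in the mutant at 30 °C and 25 °C, with 1967 RPKM in WT at 30 °C and 6969 RPKM in WT at 25 °C. A chlorophyll a/b binding protein (LOC_Os01g41710) had 1595 and 1166 RPKM in the mutant at 30 °C and 25 °C, with 305 RPKM in WT at 30 °C and 1564 RPKM in WT at 25 °C. Every wild-type value at 30 °C below rests on this library, and its part in the results was not tested. In pooled leaf tissue, fewer cells of a type and less RNA per cell cannot be told apart.

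Ratios are log2 ratios of RPM (reads scaled by library size alone) with 1 read added, folds are ratios of scaled reads with none added, and brackets hold 95% intervals from the reads. A locus was called when the adjusted p of an exact test on its reads was at most 0.001 and the difference was at least 2-fold. With no replicates, the intervals and tests cover counting error only, treat reads as independent molecules and compare libraries, not conditions.

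The most abundant member was the cytosolic HSP90 locus LOC_Os09g30412. It had 7306 reads in the mutant at 30 °C, 4261 in the mutant at 25 °C, 6469 in WT at 30 °C and 6024 in WT at 25 °C, or 230.3, 131.8, 207.0 and 188.7 RPKM in that order of libraries. The mutant at 25 °C was the low library and the other 3 lay closer together. The ratio between 30 and 25 °C (log2) was 0.81 in the mutant [0.75 to 0.86], a 1.75-fold difference, and 0.13 in the wild type [0.08 to 0.18], which was 0.05 with TMM factors or DESeq2 size factors. Neither reached 2-fold. This locus ranked 342 in the mutant at 30 °C, 750 in the mutant at 25 °C, 412 in WT at 30 °C and 470 in WT at 25 °C among all loci by RPKM. It took 97.9%, 99.1%, 96.8% and 98.9% of the reads of the cytosolic HSP90 loci in the same order of libraries. LOC_Os09g30418 lies beside it by number, as does LOC_Os09g30439, an HSP90 locus outside the member list, and neither was listed. Reads shared between near-identical copies could have been counted on LOC_Os09g30412 or left out, which was not tested. Its counts and shares may thus cover more than 1 copy.

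A second cytosolic HSP90 locus, LOC_Os04g01740, was scarce and had the highest temperature ratio of the members in both genotypes. It had 141 reads in the mutant at 30 °C and 24 in the mutant at 25 °C, and 200 reads in WT at 30 °C and 48 in WT at 25 °C. In RPKM these levels were 4.50, 0.751, 6.47 and 1.52. Both libraries at 30 °C were above both at 25 °C, and at each temperature the mutant was below the wild type. It rose 5.99-fold in the mutant (log2 2.53 [1.95 to 3.27], adjusted p = 9.35e-21 by the exact test) and 4.26-fold in the wild type (log2 2.07 [1.63 to 2.58], adjusted p = 6.54e-23 by the exact test). Of the loci with at least 100 reads in the pair of libraries, 0.595% had a higher ratio in the mutant and 0.959% in the wild type. Its share of the cytosolic HSP90 reads was 1.89% [1.60 to 2.22, Wilson] in the mutant at 30 °C and 0.558% [0.375 to 0.829] in the mutant at 25 °C. In the wild type the share was 2.99% [2.61 to 3.43] at 30 °C and 0.788% [0.595 to 1.04] at 25 °C. The counting intervals at 30 °C and 25 °C did not overlap in either genotype. In these single libraries the scarce locus made up more of the cytosolic HSP90 reads at 30 °C, while the abundant locus still supplied nearly all of them.

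The third cytosolic locus with reads, LOC_Os08g39140, was near the limit of detection, with 16 and 14 reads in the mutant at 30 °C and 25 °C and 13 and 21 reads in WT at 30 °C and 25 °C. Its ratio of 30 over 25 °C was 0.21 in the mutant [-0.91 to 1.37] and -0.62 in the wild type [-1.78 to 0.40]. Each interval included no change, so no difference was detected. At this depth each interval also allowed a difference of more than 2-fold. Nearly all of its reads were on the longer of its 2 transcript models, of 3628 bases, and the other model of 1936 bases had 0 or 1 read in each library.

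The ER HSP90 locus, LOC_Os06g50300, was the second most abundant member. ER HSP90s are of the GRP94 class, which helps secreted and membrane proteins to fold. It had 4648 reads in the mutant at 30 °C, 3049 in the mutant at 25 °C, 3591 in WT at 30 °C and 3517 in WT at 25 °C, or 134, 86.3, 105 and 101 RPKM. The mutant held both the highest and the lowest value, and the wild-type libraries lay between them. The ratio between 30 and 25 °C (log2) was 0.64 in the mutant [0.57 to 0.70]. In the wild type it was 0.06 [-0.01 to 0.13], an interval that includes no change, and it was -0.02 with TMM factors and -0.03 with DESeq2 size factors.

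The organelle HSP90 locus, LOC_Os08g38086, had few reads: 19 in the mutant at 30 °C and 8 in the mutant at 25 °C, with 37 in WT at 30 °C and 17 in WT at 25 °C. The ratio was 1.18 in the mutant [0.02 to 2.68] and 1.11 in the wild type [0.29 to 2.07]. Both ratios exceeded 2-fold, but the exact tests gave adjusted p = 0.0837 in the mutant and adjusted p = 0.0182 in the wild type, so neither was called. Of its 2 models, the model of 2652 bases had 11 and 4 reads in the mutant at 30 °C and 25 °C and 30 and 10 in WT at 30 °C and 25 °C. The model of 2722 bases had 8 and 4 reads in the mutant and 7 and 7 in WT at the same temperatures.

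HSP101, the cytosolic disaggregase at LOC_Os05g44340, rose at 30 °C in both genotypes. It had 576 reads in the mutant at 30 °C and 222 in the mutant at 25 °C, and 614 reads in WT at 30 °C and 292 in WT at 25 °C. These correspond to 14.5, 5.50, 15.7 and 7.32 RPKM. The libraries at 30 °C were close to each other and the mutant at 25 °C was the lowest. The rise was 2.64-fold in the mutant (log2 1.40 [1.18 to 1.63], adjusted p = 3.70e-37 by the exact test) and 2.15-fold in the wild type (log2 1.10 [0.90 to 1.31], adjusted p = 1.94e-27 by the exact test). Of loci with at least 100 reads, 3.15% in the mutant and 5.17% in the wild type had a higher ratio. HSP101 took 10.2% of the HSP100 reads in the mutant at 30 °C, against 6.67% in the mutant at 25 °C. In the wild type it took 10.2% at 30 °C and 7.07% at 25 °C.

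The organelle ClpB loci supplied most of the HSP100 transcripts. LOC_Os03g31300 had 4212 reads in the mutant at 30 °C, 2679 in the mutant at 25 °C, 4272 in WT at 30 °C and 3210 in WT at 25 °C, or 97.1, 60.6, 99.9 and 73.5 RPKM. LOC_Os02g08490 had 835, 428, 1132 and 629 reads and 20.8, 10.4, 28.6 and 15.5 RPKM in the same order of libraries. Both loci were higher in each library at 30 °C than in either at 25 °C, and lowest in the mutant at 25 °C. For LOC_Os03g31300 the ratio was 0.68 in the mutant [0.61 to 0.75] and 0.44 in the wild type [0.38 to 0.51]. For LOC_Os02g08490 it was 0.99 in the mutant [0.82 to 1.16] and 0.88 in the wild type [0.74 to 1.02], which in the mutant was 1.99-fold and just under the 2-fold threshold. LOC_Os03g31300 took 74.9% of the HSP100 reads in the mutant at 30 °C and 80.5% in the mutant at 25 °C, with 71.0% in WT at 30 °C and 77.7% in WT at 25 °C. In both genotypes its share was thus lower at 30 °C, where HSP101 and LOC_Os02g08490 had larger shares.

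**Figure D1:**
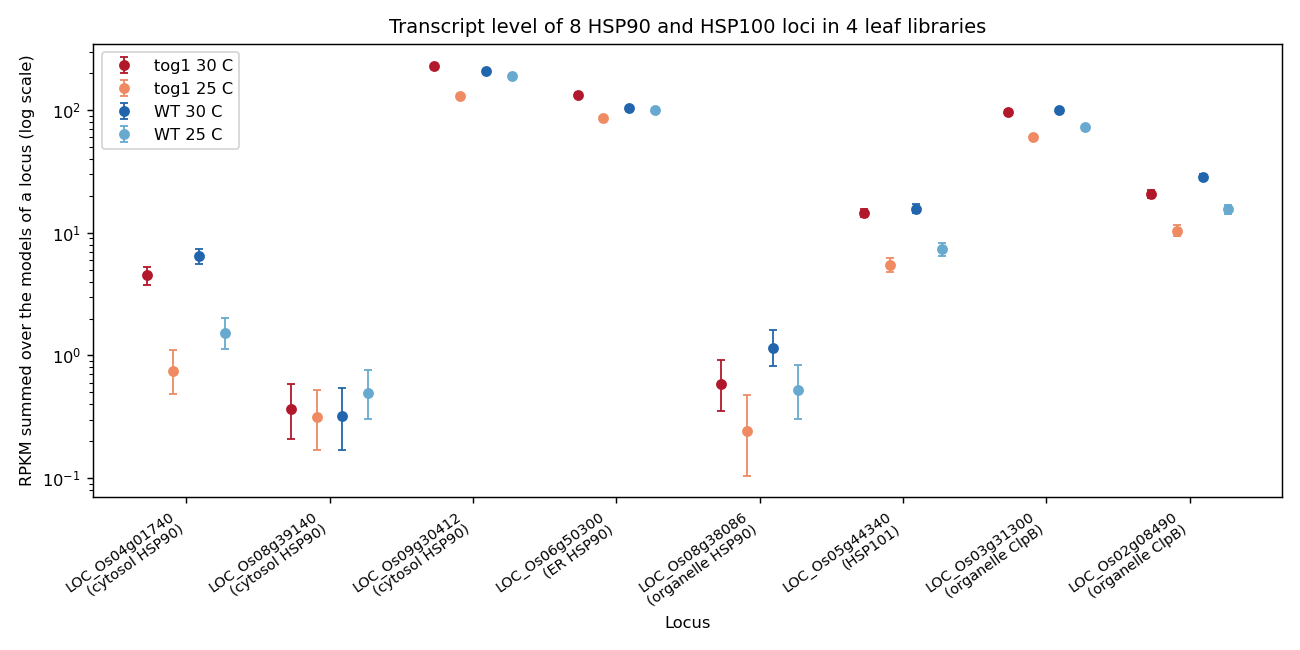
Transcript level in RPKM, summed over the models of a locus, on a log axis for the 8 loci with reads. Each point is a library (mutant at 30 °C, mutant at 25 °C, wild type at 30 °C, wild type at 25 °C, left to right) and bars are 95% intervals for counting error. LOC_Os09g30412 lies between 131.8 and 230.3 RPKM, while LOC_Os08g39140 stays below 1 RPKM.

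By RPKM, the scale that corrects for transcript length, the order of the 6 most abundant members was the same in each library: LOC_Os09g30412, LOC_Os06g50300, LOC_Os03g31300, LOC_Os02g08490, HSP101 and LOC_Os04g01740. Neighbours in that order differed beyond their counting intervals, except LOC_Os06g50300 at 105 RPKM [102 to 109] and LOC_Os03g31300 at 99.9 RPKM [96.9 to 103] in WT at 30 °C. At the low end, LOC_Os08g38086 and LOC_Os08g39140 had overlapping intervals in the mutant at 30 °C, the mutant at 25 °C and WT at 25 °C. In WT at 30 °C they were apart, at 1.16 RPKM [0.817 to 1.60] for LOC_Os08g38086 and 0.320 RPKM [0.170 to 0.547] for LOC_Os08g39140.

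The first comparison asked how growth at 30 °C rather than 25 °C changed the chaperone transcripts within a genotype. In the mutant, LOC_Os04g01740 and HSP101 rose, making 2 of 8 members tested, beside 5.19% of all loci called higher and 2.68% called lower. In the wild type the same 2 members rose, beside 4.59% of all loci called higher and 4.50% called lower. No member was called lower in either genotype. By the adjusted p alone, with no fold threshold, 6 of 8 members were higher in the mutant (13.5% of all loci) and 5 of 8 in the wild type (14.4% of all loci). That test calls small differences of abundant loci. Of the 5 members with 500 or more reads in the 2 libraries compared, 5 were higher in the mutant, where 28.9% of all loci of that depth were, and 4 in the wild type, where 34.5% were.

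The median log2 ratio over the 8 members was 0.90 in the mutant, beside 0.06 over all loci with at least 100 reads, and 0.66 in the wild type, beside 0.10. By family and over the members alone, the HSP90 median was 0.81 in the mutant and 0.13 in the wild type. The 2 HSP90 loci with reads outside the member list had a median of 0.85 in the mutant and 0.76 in the wild type. The low wild-type median thus holds for the HSP90 members and not for every HSP90 locus. For the HSP100 members the median was 0.99 in the mutant and 0.88 in the wild type. All 8 ratios were above 0 in the mutant, where 54.9% of all loci with at least 100 reads were, and 7 of 8 were in the wild type, where 57.7% were, although LOC_Os06g50300 was below 0 in the wild type with TMM or DESeq2 factors. The 2 temperature comparisons share no library. Over the 8 members the ratios of the mutant and the wild type had r = 0.949 and rho = 0.952, and over 16127 loci with at least 100 reads in the 4 libraries r was 0.398 and rho 0.416. The sets are not alike, since LOC_Os08g39140 with 64 reads and LOC_Os08g38086 with 81 reads are under that minimum. The points are loci of the same libraries and not replicates, so the correlations are a description.

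**Figure D2:**
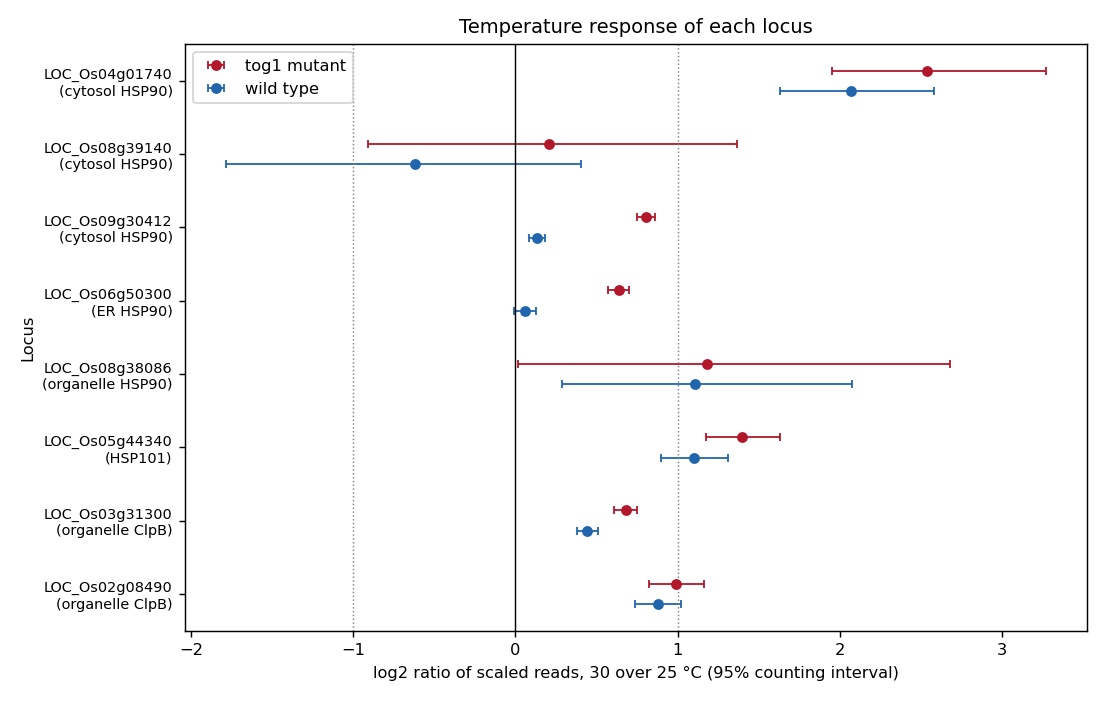
Log2 ratio of 30 over 25 °C for each locus in the tog1 mutant (upper point) and the wild type (lower point), with 95% intervals for counting error. Dotted lines mark a 2-fold difference. LOC_Os04g01740 lies at 2.53 and 2.07 and HSP101 at 1.40 and 1.10, while LOC_Os09g30412 and LOC_Os06g50300 lie at 0.81 and 0.64 in the mutant against 0.13 and 0.06 in the wild type.

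The next comparison asked whether the temperature response of the mutant differed from that of the wild type. The abundant cytosolic HSP90, the ER HSP90 and a ClpB locus passed the adjusted p, each with the larger response in the mutant. The difference of log2 ratios, mutant minus wild type, was 0.67 for LOC_Os09g30412 [0.60 to 0.75] with adjusted p = 5.24e-69 by Fisher's exact test. For LOC_Os06g50300 it was 0.57 [0.48 to 0.67] with adjusted p = 1.01e-31 by Fisher's exact test. For the ClpB locus LOC_Os03g31300 it was 0.24 [0.14 to 0.33] with adjusted p = 1.18e-05 by Fisher's exact test. None of these reached 2-fold, so 0 of 8 members were called, beside 5.37% of all loci called in either direction. By the adjusted p alone 3 of 8 were higher, beside 6.74% of all loci (13.2% in either direction), and 3 of the 5 members with at least 1000 reads over the 4 libraries, beside 16.3% of loci of that depth.

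For the members called in both genotypes, the interval of the difference included 0. For LOC_Os04g01740 the difference was 0.47 [-0.32 to 1.33] and for HSP101 it was 0.30 [-0.01 to 0.61]. The second ClpB locus, LOC_Os02g08490, had a difference of 0.11 [-0.11 to 0.34]. For counting error alone, the intervals still allow a difference of more than 2-fold for LOC_Os04g01740. They end short of it for HSP101 and LOC_Os02g08490, but they hold no spread between libraries and so set no bound for the conditions. For LOC_Os08g39140 the difference was 0.83 [-0.72 to 2.49] and for LOC_Os08g38086 it was 0.07 [-1.47 to 1.79], so both low loci gave intervals too wide to place. All 8 differences were above 0, where 47.7% of loci with at least 100 reads were, but that of LOC_Os08g38086 was -0.05 with a pseudocount of 5 reads, -0.24 on its most-read model and -0.02 from RPKM. The median difference over the members was 0.38, beside -0.03 over all loci with at least 100 reads. Outside the member list, 1 of 2 HSP90 loci and 2 of 4 Clp ATPase loci were above 0, with LOC_Os09g29840 at -0.23 [-0.57 to 0.10]. Of the HSP70 loci 12 of 12 were above 0, with a median of 0.99.

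**Figure D3:**
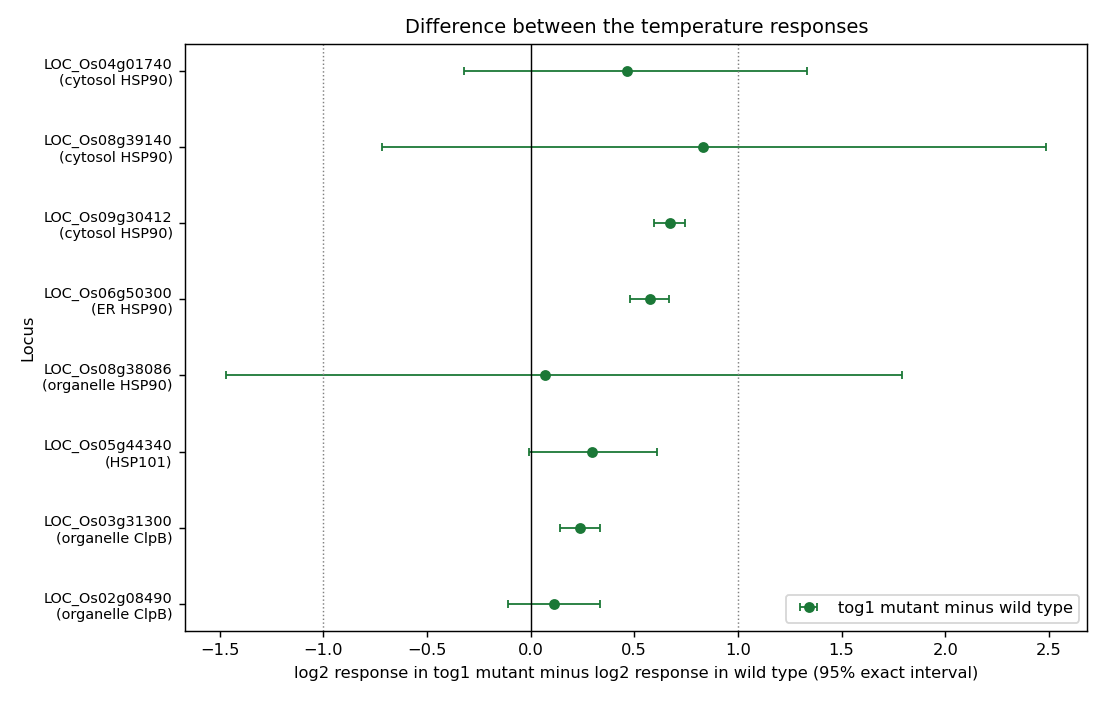
Log2 response to temperature in the tog1 mutant minus that in the wild type for each locus, with 95% exact intervals for counting error. Dotted lines mark a 2-fold difference. LOC_Os09g30412 at 0.67 and LOC_Os06g50300 at 0.57 have narrow intervals above 0, while the interval of LOC_Os08g39140 runs from -0.72 to 2.49.

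The genotypes were then compared at each temperature. No member reached the thresholds of a call at either temperature. At 25 °C the ratio of mutant over wild type was below 0 for every member with reads. At 30 °C the ratios of the abundant HSP90 members LOC_Os09g30412 and LOC_Os06g50300 were above 0. Those of the HSP100 members were not, apart from LOC_Os03g31300 under other scalings. HSP90 loci outside the member list were below 0 at 30 °C, with -0.17 [-0.23 to -0.11] for the abundant LOC_Os12g32986 and -0.40 [-0.61 to -0.19] for LOC_Os09g29840. At 25 °C these loci had -0.58 [-0.67 to -0.50] and -0.16 [-0.42 to 0.09]. Each genotype comparison uses libraries that also enter the temperature responses, so the values are given side by side and are not separate evidence.

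At 30 °C, LOC_Os09g30412 and LOC_Os06g50300 had log2 ratios of mutant over wild type of 0.15 [0.11 to 0.20] and 0.35 [0.29 to 0.41]. The ClpB locus LOC_Os02g08490 had -0.46 [-0.59 to -0.33] and LOC_Os04g01740 had -0.52 [-0.85 to -0.21]. HSP101 had -0.11 [-0.28 to 0.05], and LOC_Os03g31300 had -0.04 [-0.10 to 0.02], which was 0.00 with TMM factors and 0.02 with DESeq2 size factors. The low loci LOC_Os08g38086 and LOC_Os08g39140 had -0.95 [-1.86 to -0.15] and 0.26 [-0.87 to 1.45]. At this temperature 0 of 8 members were called, beside 6.42% of all loci in either direction. By the adjusted p alone 2 were higher and 1 was lower, beside 8.09% and 11.1% of all loci. Of the 5 members with at least 500 reads, these were the same 2 and 1, beside 14.1% higher and 28.7% lower among loci of that depth.

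At 25 °C all 8 ratios of mutant over wild type were below 0, in a comparison where 46.2% of all loci with at least 100 reads were above 0. LOC_Os09g30412 had -0.52 [-0.57 to -0.46], LOC_Os06g50300 -0.22 [-0.29 to -0.15], LOC_Os03g31300 -0.28 [-0.35 to -0.20] and LOC_Os02g08490 -0.57 [-0.75 to -0.39]. HSP101 had -0.41 [-0.67 to -0.16] and LOC_Os04g01740 had -0.99 [-1.79 to -0.28]. LOC_Os08g39140 had -0.57 [-1.69 to 0.44] and LOC_Os08g38086 had -1.02 [-2.53 to 0.18]. The ratio of scaled reads was 0.494 for LOC_Os04g01740 and 0.465 for LOC_Os08g38086, but with adjusted p = 0.0173 for LOC_Os04g01740 and adjusted p = 0.177 for LOC_Os08g38086 by the exact test neither was called. At this temperature 0 of 8 members were called, beside 4.70% of all loci in either direction. By the adjusted p alone 4 of 8 were lower, beside 10.3% of all loci, and these were 4 of the 5 members with at least 500 reads, beside 23.7% of loci of that depth. The median over the members was -0.54, beside -0.04 over all loci with at least 100 reads. At 30 °C the median was -0.08, beside -0.11. Ratios below 0 at 25 °C were not particular to the members. Outside the member list, 0 of 2 HSP90 loci, 0 of 4 Clp ATPase loci and 1 of 12 HSP70 loci were above 0. Of the heat shock factors, 4 of 9 were above 0.

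**Figure D4:**
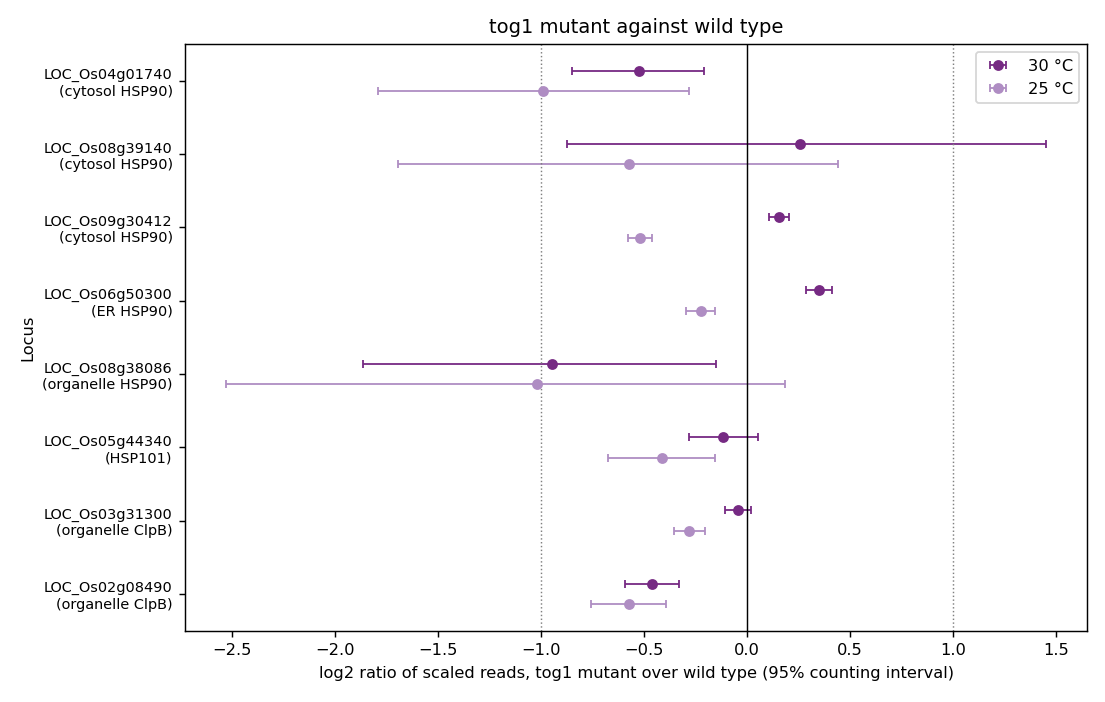
Log2 ratio of the tog1 mutant over the wild type for each locus at 30 °C (upper point) and 25 °C (lower point), with 95% intervals for counting error. Dotted lines mark a 2-fold difference. The 25 °C points lie from -1.02 to -0.22, and at 30 °C LOC_Os09g30412 and LOC_Os06g50300 lie above 0 at 0.15 and 0.35.

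Summed over its members with reads, each family gave a plainer view of the same reads. HSP90 took 999 RPM in the mutant at 30 °C, 595 in the mutant at 25 °C, 862 in WT at 30 °C and 788 in WT at 25 °C. The mutant held the highest and the lowest HSP90 sum. HSP100 took 463, 269, 503 and 338 RPM in the same order of libraries, with both sums at 30 °C above both at 25 °C. The HSP90 sum was 1.68-fold higher at 30 °C in the mutant (log2 0.75 [0.71 to 0.79]) and 1.09-fold higher in the wild type (0.13 [0.09 to 0.17]). The HSP100 sum was 1.72-fold higher at 30 °C in the mutant (0.78 [0.72 to 0.85]) and 1.49-fold higher in the wild type (0.57 [0.52 to 0.63]). The difference between the responses was 0.62 for HSP90 [0.56 to 0.68] and 0.21 for HSP100 [0.13 to 0.29]. The HSP90 sum follows LOC_Os09g30412, which supplied from 57.9% to 62.7% of it, and the HSP100 sum follows LOC_Os03g31300. HSP90 loci outside the member list, LOC_Os12g32986 and LOC_Os09g29840, are not in the HSP90 sum. Their log2 ratios of 30 over 25 °C were 1.28 and 0.43 in the mutant and 0.87 and 0.66 in the wild type.

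**Figure D5:**
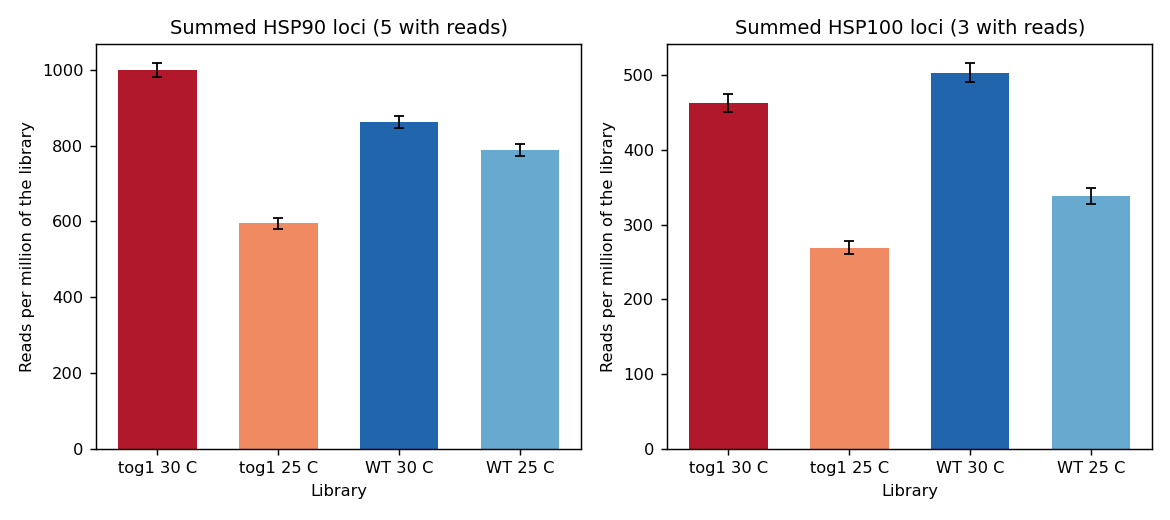
The sum of RPM over the 5 HSP90 members (left) and the 3 HSP100 members (right) with reads, by library. Bars start at 0 and error bars are 95% Wilson intervals for counting error. The HSP90 sum is 999 in the mutant at 30 °C and 595 in the mutant at 25 °C, against 862 and 788 in WT at the same temperatures.

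None of these differences has a check between replicates. If a coefficient of variation of 0.2 between libraries of the same condition is assumed, which these data cannot measure, the interval of the temperature ratio excluded 0 for 4 of 8 members in the mutant and 4 of 8 in the wild type. Under that assumption it excluded 0 for no member in the genotype comparison at 30 °C or 25 °C or in the difference of responses. Each temperature count includes a locus with a narrow margin. The interval began at 0.0036 for LOC_Os09g30412 in the mutant and at 0.0012 for LOC_Os08g38086 in the wild type. TMM factors shift every log2 ratio by -0.08 in both temperature comparisons, which is more than these margins. For LOC_Os09g30412 the interval of the difference of responses became -0.46 to 1.81, and for the HSP90 sum -0.51 to 1.75. For HSP101 it became -0.87 to 1.47 and for LOC_Os02g08490 -1.04 to 1.27, so both intervals then reached past 2-fold. With the edgeR exact test at the same assumed spread and an adjusted p of at most 0.05, LOC_Os04g01740 was called higher at 30 °C in both genotypes and HSP101 in the mutant (adjusted p = 0.0376) but not in the wild type (adjusted p = 0.126). At an assumed 0.4 no member was called by edgeR.

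Other HSP90 and Clp ATPase loci were taken from lists of related genes, which like the members are known here by identifier alone. Between 30 and 25 °C the median log2 ratio was 0.85 in the mutant and 0.76 in the wild type for the 2 other HSP90 loci with reads, and 1.30 in the mutant and 0.86 in the wild type for 4 Clp loci. Of the other HSP90 loci, LOC_Os12g32986 had 4377 reads in the mutant at 30 °C and 1841 in the mutant at 25 °C, and 4863 and 2725 reads in WT at 30 °C and 25 °C. It rose 2.42-fold in the mutant (log2 1.28 [1.20 to 1.36]) and had 0.87 [0.80 to 0.93] in the wild type, which was not called. LOC_Os09g29840 was not called in any comparison, and LOC_Os09g30439 was not listed in the tables used here. ClpC and ClpD are HSP100 relatives that feed proteins to the Clp protease of the chloroplast. Of 4 such loci, 2 were called higher at 30 °C in the mutant, beside 5.19% of all loci. In the wild type 2 were called higher, beside 4.59% of all loci, and LOC_Os02g32520 was called in both genotypes. It had 4993 reads in the mutant at 30 °C and 1203 in the mutant at 25 °C, against 9243 and 3149 reads in WT at 30 °C and 25 °C. It was called higher at 30 °C in both genotypes (log2 2.08 in the mutant and 1.58 in the wild type) and lower in the mutant than in WT at 25 °C (-1.41), where 3.15% of all loci were called lower. LOC_Os04g32560 rose in the mutant (99 reads at 30 °C and 32 at 25 °C, log2 1.63). LOC_Os12g12850 rose in the wild type (410 reads at 30 °C and 172 at 25 °C, log2 1.28), and its ratio in the mutant was 0.97 [0.68 to 1.29].

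Partners and regulators of the members were counted in the same way, and the shares of all loci given above apply to these counts too. Among 6 loci listed as partners of HSP90 or HSP101, such as the co-chaperones HOP and SGT1, 1 was called higher at 30 °C in the mutant and 0 in the wild type, and the median log2 ratio was 0.59 in the mutant and 0.42 in the wild type. The called locus, LOC_Os04g28420, had 13 reads in the mutant at 30 °C and 0 in the mutant at 25 °C, with 6 and 0 reads in WT at 30 °C and 25 °C. Its call was lost with TMM factors and with DESeq2 size factors. Heat shock factors are the transcription factors that switch on chaperone genes. Of 9 tested, LOC_Os07g08140 rose in the mutant (108 reads at 30 °C and 47 at 25 °C, log2 1.21), LOC_Os02g32590 fell in the mutant (16 reads at 30 °C and 50 at 25 °C, log2 -1.56), and 0 were called between temperatures in the wild type. The median of these factors was 0.58 in the mutant and 0.13 in the wild type. LOC_Os07g08140 was also called lower in the mutant than in WT at 25 °C (log2 -1.02), but with TMM factors (-0.98) it was under 2-fold and not called.

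HSP70 hands clients to HSP90 and works with ClpB. Of 11 HSP70 loci tested in the mutant, 4 were called higher at 30 °C: LOC_Os01g62290 (log2 1.17), LOC_Os03g16920 (4.38, from 122 reads at 30 °C and 5 at 25 °C), LOC_Os05g38530 (1.56) and LOC_Os03g02260 (1.14). In the wild type 0 of 12 were called higher and 1 was called lower, LOC_Os03g16860 (-1.20), which had 1710 reads in WT at 30 °C and 4023 in WT at 25 °C. LOC_Os03g16860 was also called higher in the mutant than in WT at 30 °C (1.11), as were 4.08% of all loci, and LOC_Os03g16920 lower in the mutant than in WT at 25 °C (-3.74). The median HSP70 ratio was 0.76 in the mutant and -0.23 in the wild type. In the difference of responses 5 of 12 HSP70 loci were called higher in the mutant, beside 3.50% of all loci, among them LOC_Os03g60620 (log2 1.25), which was named after its values were seen. Of the heat shock factors 1 of 9 was called there, LOC_Os08g43334, also named after its values were seen, with 15 and 1 reads in the mutant at 30 °C and 25 °C and 2 and 9 in WT at 30 °C and 25 °C. Small heat shock proteins, which hold unfolded proteins for the other chaperones, had 0 of 10 loci called in the mutant and 1 higher and 1 lower of 10 in the wild type. These were LOC_Os03g15960 (log2 2.13, with 102 reads at 30 °C and 23 at 25 °C) and LOC_Os01g04350 (-1.20, with 817 reads at 30 °C and 1920 at 25 °C). In the mutant LOC_Os01g04350, the locus of the list with the most reads, had 1248 reads at 30 °C and 2165 at 25 °C (log2 -0.77 [-0.87 to -0.67], not called). The list had a median of 1.01 in the mutant and 0.08 in the wild type, and most of its loci had few reads. LOC_Os03g15960 was also called lower in the mutant than in WT at 30 °C (-1.85), as were 2.35% of all loci.

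The loci most like the members in their pattern over the 4 libraries were found by the distance between centred log2 RPM, among 10036 loci with at least 500 reads. The nearest to LOC_Os09g30412 was LOC_Os01g14510 at a distance of 0.0616, with 392 and 234 reads in the mutant at 30 °C and 25 °C and 363 and 320 in WT at 30 °C and 25 °C. Other members were farther from it, with LOC_Os03g31300 at 0.237 and LOC_Os06g50300 at 0.278. The nearest to HSP101 was LOC_Os05g31140 at 0.0638, with 348 and 142 reads in the mutant at 30 °C and 25 °C and 379 and 178 in WT at 30 °C and 25 °C. The member nearest to HSP101 was LOC_Os02g08490 at 0.416.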

How the data were processed

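RNA was extracted from pooled fourth-leaf blades and sequenced on an Illumina instrument as 4 libraries, each standing for a whole condition. Raw counts of reads on every transcript model, not normalized, were deposited by the authors. The authors also deposited RPKM values, which were recalculated here from counts, model lengths and column sums to within 4.91e-06%. The aligner, genome build and annotation are not given in the sources used here. The deposited columns of log2 ratio, direction, p-value and FDR, which compare temperatures within a genotype, were not used.

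Counts and RPKM were summed by locus. For each pair of libraries the reads were set against each other in a two-sided exact conditional binomial test and the difference of responses by Fisher's exact test, with Benjamini-Hochberg adjustment over all loci with a read, a threshold of 0.001 and 2-fold, and 1 read added in log2 ratios. Intervals are Clopper-Pearson for ratios, exact conditional for differences and Wilson for shares. Both tests were checked on simulated reads with planted changes and counting error only, a check that covers no spread between libraries. The members and lists were chosen with earlier results of these data known. Named loci were all members, listed loci called between any pair of libraries, and the loci nearest in pattern to LOC_Os09g30412 and to HSP101, of which the first each is given since identifiers carry no names. Alternatives were TMM and DESeq2 factors, other fold thresholds, a read minimum, edgeR with an assumed spread, a pseudocount of 5 reads, the most-read model and RPKM. Of the 28458 loci, 0 matched the RefSeq table of assembly ASM3414082v1, so no sequences or positions are given. Versions were Python 3.11.15, numpy 2.4.6, scipy 1.17.1, pandas 2.3.3, matplotlib 3.10.9, R 4.3.3, edgeR 4.0.16 and DESeq2 1.42.0.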

Additional observations from a re-analysis of the deposited data

Results flagged for a closer look

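The temperature response differed between the tog1 mutant and the wild type for 3 of 8 members tested and for 10 of the other loci named. The rule was an adjusted p of at most 0.001 by Fisher's exact test, which 13.2% of all loci passed. Among loci with at least 1000 reads over the 4 libraries, 16.3% passed with the higher response in the mutant and 19.1% with the lower. The other loci had been named because they were called. The differences of log2 ratios, mutant minus wild type, were 0.67 for LOC_Os09g30412, 0.57 for LOC_Os06g50300 and 0.24 for LOC_Os03g31300. Of the other HSP90 and Clp loci, LOC_Os12g32986 had 0.41 and LOC_Os02g32520 had 0.50. Of the HSP70 loci, LOC_Os03g16920 had 3.88, LOC_Os03g16860 had 1.75, LOC_Os01g62290 had 1.47, LOC_Os03g60620 had 1.25, LOC_Os05g38530 had 1.10 and LOC_Os03g02260 had 0.46. The small heat shock protein locus LOC_Os01g04350 had 0.43. The heat shock factor locus LOC_Os08g43334 had 4.73, with a 95% interval of 2.06 to 11.6 that reflects few reads. Listed loci that were not called in any comparison also passed, with 0.89 for LOC_Os02g02410, 0.41 for LOC_Os12g14070, 0.33 for LOC_Os05g23740, 0.20 for LOC_Os02g53420, 0.32 for LOC_Os08g41390 and 0.21 for LOC_Os01g43540. The tests compare 4 libraries without replicates, and the wild-type library at 30 °C, which stood apart in leaf markers, enters each of them.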

How the results depend on the processing

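No paired analysis was possible because each condition had 1 library and the labels give no replicate numbers, and for the same reason no library could be left out. TMM factors, DESeq2 size factors and a minimum of 10 reads kept the number of members called in all 5 comparisons. In the mutant, 2 members were called higher at 30 °C, against 6 at a 1.5-fold threshold, 1 at 3-fold and 0 with the edgeR exact test at an assumed coefficient of variation of 0.4 (adjusted p at most 0.05). In the wild type, 2 were called, against 1 at 3-fold, 1 with edgeR at an assumed 0.2 and 0 at 0.4. For the genotypes at 25 °C, 0 were called, against 2 at 2-fold with no test, and for the difference of responses 0, against 1 at 1.5-fold. Over all loci, the 2081 calls in the mutant became 3745 at 1.5-fold, 999 at 3-fold, 8672 with no test, 1013 with edgeR at 0.2 and 47 at 0.4. The 2404 in the wild type became 4221, 1242, 9055, 1434 and 133 under the same settings. The 1698 at 30 °C became 2852, 973, 8307, 1000 and 143, and the 1246 at 25 °C became 2620, 607, 7753, 490 and 78. The 1527 calls of the difference became 2597 at 1.5-fold, 827 at 3-fold and 7702 with no test. The intervals with an assumed spread, and the alternatives for the listed loci and their calls, were chosen after seeing the data. Low depth limits LOC_Os08g39140 and LOC_Os08g38086.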
